A study of Homo sapiens with 52 samples.

Results

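The 77 protein-coding genes whose symbols begin with MRPL or MRPS encode proteins of the mitochondrial ribosome. They were taken from the gene-level tables by symbol and gene type alone, out of 78894 annotated genes of which 20120 were protein coding. 49 symbols belong to the large subunit series (MRPL) and 28 to the small subunit series (MRPS). 46 encode proteins with a bacterial counterpart and 31 encode proteins particular to the mitochondrial ribosome. All 77 passed the filter on low counts in every cell line.

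The mitochondrial ribosome translates the few messenger RNAs of the mitochondrial genome, which encode core subunits of the respiratory chain and of ATP synthase. Its RNA is made inside the mitochondrion, whereas each of its proteins is encoded in the nucleus, made in the cytosol and imported. Nuclear promoters of such genes are known for sites of NRF1, ETS-family factors and YY1.

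Stranded, poly(A)-enriched mRNA-seq was available for 52 samples in 18 groups. The groups were 3 human claudin-low breast cancer cell lines, SUM159PT, MDA-MB-231 and HS578T, each with 3 siRNA and 3 shRNA treatments. Neuropilin-1 (NRP1), a cell surface co-receptor for VEGF and semaphorins, was targeted by siNRP1#3, siNRP1#5, shNRP1#3 and shNRP1#5, and siNT and shNT were the non-targeting controls of each delivery. The siRNAs were transfected at 20 nM with lipid and RNA was taken after 72 h, while the shRNAs came from a pLKO.1 lentivirus with puromycin selection, with RNA taken 48 h after seeding. The study's methods give the #3 reagents as aimed at transmembrane NRP1 alone and the #5 reagents at its transmembrane and soluble forms. Every group had 3 replicates except SUM159PT siNRP1#5, which lacked replicate 1, and HS578T shNRP1#3, which lacked replicate 3. The study's methods describe the replicates as independent, and those of the shRNA groups were passages of the transduced cells taken in succession. A sample missing from a group had been left out by the submitters in quality control.

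Expected counts totalled 25310443 to 72003442 per sample (median 44804505). NRP1 was lower in all 12 knockdown groups, by log2 fold changes of -0.70 to -4.88, and passed the test in each except HS578T shNRP1#3 (log2 fold change -1.59, adjusted p = 0.069, edgeR). The epithelial junction gene CDH1 had a median CPM (reads scaled to library size) under 1 in all 3 lines. CLDN3 did so in SUM159PT and HS578T but had a median CPM of 4.99 in MDA-MB-231, and CLDN4 had median CPM of 1.8, 146 and 3.18 in SUM159PT, MDA-MB-231 and HS578T. The 3 HS578T siNRP1#5 libraries stood apart: RNA of genes otherwise read only in MDA-MB-231 was present at 26%, 16.7% and 13.4% of its MDA-MB-231 level, against 0.636% to 2.01% in HS578T siNT. Replicate 2 of that group also held 5.43% of the SUM159PT level, and HS578T siNRP1#3 replicate 3 held 7.17% of the MDA-MB-231 level. Counts for these groups are also given after subtracting the other lines' control profile at these shares. That step assumes that the marker RNA came from those lines, which was not tested.

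The NRP1 sites that the reagents match are shown because the 3′UTRs of some members held the seed stretch of one of them. Each is written 5′ to 3′ as it stands in the coding sequence on the minus strand of chromosome 10 (GRCh38), and capitals mark the complement of guide bases 2 to 8, the seed. siNRP1#5 and shNRP1#5 were designed to the same site in exon 4 of 17, and the #3 sites lie in exon 15.
siNRP1#3 at chr10:33185638-33185656: taaccacatttCACAAGAa
siNRP1#5 and shNRP1#5 at chr10:33263779-33263797: cagccttgaatGCACTTAt
shNRP1#3 at chr10:33185659-33185679: gctgtggatgacaTTAGTATt

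The 3′UTRs of 6 of the 77 members held the siNRP1#3 seed match CACAAGA, a share of 7.79% beside 10.2% of 12916 expressed genes (one strand, canonical transcript). Median 3′UTR length was 464 bases for members and 1303 for all of these genes. The 6 matches are printed below with the match in capitals, and the MRPL58 and MRPS27 matches were followed by an A. This search was made after the fold changes had been seen.
MRPL58, chr17:75021136-75021142, plus strand: attggagccatCACAAGAatgttcatttg
MRPS27, chr5:72220875-72220881, minus strand: cccacctgtctCACAAGAacttcactcaa
MRPL52, chr14:22834614-22834620, plus strand: ggcgggcagatCACAAGAtcaggagttcg
MRPS11, chr15:88480529-88480535, plus strand: gttattttactCACAAGAgggctttggaa
MRPS14, chr1:175013735-175013741, minus strand: gaaatatgaagCACAAGAcaaggcccgta
MRPS25, chr3:15049342-15049348, minus strand: catgtccataaCACAAGAgagcgctgcat

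Transcript levels differed widely between members, in TPM, a scale adjusted for transcript length and library total. Median TPM over the 52 samples ran from 10.6 to 322, with a middle value of 90.7. MRPS24 (322 TPM) was highest, followed by MRPS34 (278 TPM), MRPL12 (273 TPM), MRPL52 (220 TPM) and MRPL33 (208 TPM). MRPL12 is a stalk protein that also binds the mitochondrial RNA polymerase. The lowest medians were 10.6 TPM for MRPL50, 13 TPM for MRPS31, 14.1 TPM for MRPL1, 23.2 TPM for MRPS17 and 24.1 TPM for MRPS9. The lowest expected count of any member in any sample was 61, in MRPL1. The levels of 18 members are less certain because an exon of another gene overlaps theirs on the same strand, among them MRPS24, MRPL12, MRPL33, MRPL53 and MRPS17. Pseudogenes named after members (81 genes) took a median of 0.0569% and at most 0.0945% of the summed counts of members and pseudogenes. MRPS36 was not found under that symbol and is not counted.

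**Figure D1:**
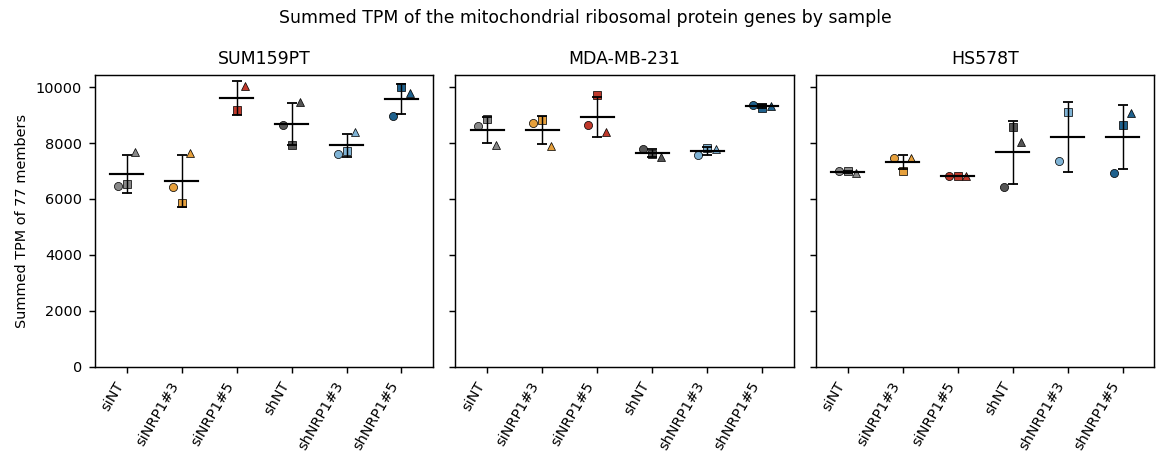
Summed TPM of the 77 mitochondrial ribosomal protein genes in each sample (points; circle, square and triangle for replicates 1, 2 and 3), with the group mean (long bar) and SD (error bar), by cell line and treatment. In MDA-MB-231 the 3 shNRP1#5 samples, from 9243 to 9374 TPM, lie above all shNT samples, and in SUM159PT the 2 siNRP1#5 samples lie above all siNT samples.

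The first comparison asked how the members responded to siNRP1#3 against siNT. Few members changed. In SUM159PT the summed TPM overlapped, at 6416, 5846 and 7656 with siNRP1#3 and 6477, 6526 and 7694 with siNT. By the edgeR quasi-likelihood test with Benjamini-Hochberg adjustment over all genes, 0 members rose and 9 fell in SUM159PT, where 3.16% of all tested genes rose and 5.5% fell, and the members' median log2 fold change was -0.10. In MDA-MB-231 5 members rose and 6 fell (11.4% and 14.3% of all genes), with a median of 0.08. In HS578T 0 rose and 2 fell (2.31% and 2.34% of all genes), with a median of 0.04. MRPS27 fell in all 3 lines, beside 0.759% of the genes tested in all lines. MRPL58, MRPS7, MRPS6, MRPL24 and MRPL53 fell in 2 of the 3, and 4.71% of these genes fell in at least 2. With the other lines' profile subtracted, 0 rose and 2 fell in HS578T and the median was 0.07.

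MRPL58 is a peptidyl-tRNA hydrolase built into the large subunit that releases chains from stalled ribosomes. In SUM159PT its CPM was 60.2, 71.4 and 56.3 with siNT and 12.7, 14.6 and 13.3 with siNRP1#3. In MDA-MB-231 it was 42.8, 49.1 and 45.6 with siNT and 15.6, 15.2 and 14.4 with siNRP1#3. The groups did not overlap in either line, and MRPL58 fell by 2.21 (SE 0.248, adjusted p = 0.000136) and by 1.58 (SE 0.151, adjusted p = 6.93e-07) on the log2 scale. In HS578T its CPM was 41.8, 54.1 and 45.7 with siNT and 36.3, 29.4 and 23.3 with siNRP1#3, a log2 fold change of -0.67 that missed the threshold (adjusted p = 0.11). With the other lines' profile subtracted the HS578T value of MRPL58 was -0.69 (adjusted p = 0.175). The response of MRPL58 to siNRP1#3 differed between the 3 lines (edgeR F test over all samples, adjusted p = 0.00333). It was the 1 member that did, beside 3.42% of all genes.

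MRPS27, a small subunit protein with pentatricopeptide repeats, had the most even response. Its CPM was 91.5, 115 and 103 with siNT in SUM159PT and 44.8, 40.4 and 38.9 with siNRP1#3. In MDA-MB-231 it went from 97.2, 102 and 88.3 to 45.7, 46.5 and 41.5, and in HS578T from 87.8, 86.8 and 107 to 26.7, 42.9 and 41.1. No knockdown sample reached any control sample of its line. The log2 fold changes of MRPS27 were -1.31 (SE 0.196), -1.08 (SE 0.103) and -1.35 (SE 0.214), with adjusted p-values of 0.000801, 6.93e-07 and 0.00218. After subtraction the HS578T value of MRPS27 was -1.45 (adjusted p = 0.00272). With siNRP1#5 the same gene had log2 fold changes of 0.27, 0.07 and -0.25 that did not pass.

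MRPL58 and MRPS27 are the members whose printed matches are followed by an A. The other 4 members with a match, MRPL52, MRPS11, MRPS14 and MRPS25, did not pass the test with siNRP1#3 in any line. For these 4 the canonical transcript that was searched was not the isoform with the highest mean share of its gene. For MRPL58 and MRPS27 it was, at 74.8% and 66.9%. Other isoforms were not searched. Members without a match were also among those that fell, with 7 of 71 in SUM159PT, 4 of 71 in MDA-MB-231 and, in HS578T, 1 of 71. The 6 members with a match had a median log2 fold change of -0.34 in SUM159PT (-0.10 without a match). In MDA-MB-231 it was 0.06 (0.08 without) and in HS578T -0.03 (0.07 without). Over all expressed genes, those with a match had a median log2 fold change of -0.22 in SUM159PT (-0.03 without), -0.29 in MDA-MB-231 (-0.02 without) and, in HS578T, -0.10 (0.02 without). Whether the matches took part in the falls of MRPL58 and MRPS27 was not tested.

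Further members fell with siNRP1#3. MRPS6, a small subunit protein whose gene shares exons with SLC5A3, fell by 1.47 (adjusted p = 0.0208) in SUM159PT and by 1.01 (adjusted p = 0.00866) in HS578T on the log2 scale. Its CPM in SUM159PT was 59.8, 92.2 and 95.4 with siNT and 31.7, 24.3 and 33.0 with siNRP1#3, again without overlap, and its HS578T value after subtraction was -1.03. MRPS7, a protein of the small subunit head, fell by 0.89 in SUM159PT and by 0.65 in MDA-MB-231. Rises were seen in MDA-MB-231 only at modest size, with MRPS18C up by 0.62 and MRPL2, a protein close to the peptidyl transferase centre, up by 0.59. YY1, a transcription factor and no member, fell by 0.58 (adjusted p = 0.042) in SUM159PT and by 0.65 (adjusted p = 0.000123) in MDA-MB-231. Its 3′UTR held 1 siNRP1#3 seed match. YY1 was 1 of 9 listed nuclear regulators of mitochondrial genes. With siNRP1#3, 0 of the 9 rose and 1 fell in SUM159PT, where 5.5% of all genes fell (median log2 fold change -0.58). In MDA-MB-231 0 rose and 2 fell (14.3% of all genes fell, median -0.26). In HS578T 1 rose and 0 fell (2.31% of all genes rose, median 0.23).

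The second comparison, siNRP1#5 against siNT, gave the most calls of any knockdown in SUM159PT, where members rose. Fewer rose in MDA-MB-231. In SUM159PT the summed TPM was 9171 and 10044 with siNRP1#5 and 6477, 6526 and 7694 with siNT, so the groups did not overlap. 43 members rose and 1 fell, where 9.0% of all genes rose and 8.89% fell. 75 of 77 log2 fold changes were above 0 and the median was 0.73 (0.48 on log2(TPM + 0.5), where the median of all genes was -0.14). Over all genes the log2 fold change fell with exonic length (Spearman rho -0.16, genes not being independent), and its part in the rise was not tested. By symbol, 28 of 49 MRPL genes and 15 of 28 MRPS genes rose, as did 26 of 46 bacterial-type members and 17 of 31 members particular to the mitochondrial ribosome.

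In MDA-MB-231 25 members rose and 3 fell with siNRP1#5 (14.4% and 14.9% of all genes), with a median log2 fold change of 0.26. On log2(TPM + 0.5) that median was 0.03, beside -0.14 for all genes, and rho with length was -0.22. Summed TPM overlapped, at 8645, 9728 and 8391 against 8626, 8843 and 7925. In HS578T 6 rose and 3 fell (10.1% and 8.53% of all genes), with a median of 0.12 (0.05 on log2(TPM + 0.5)). Summed TPM was 6819, 6828 and 6816 against 6982, 6986 and 6920, so every knockdown sample lay below every control. With the other lines' profile subtracted, 7 rose and 5 fell in HS578T and the median was 0.23. The 3 comparisons do not share controls. 22 members rose in at least 2 lines, beside 7.38% of the genes tested in all lines. MRPL27, MRPL32 and MRPL44 rose in all 3, beside 1.13% of these genes.

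These counts depended on the fit. In SUM159PT, where siNRP1#5 had 2 samples, 0 members passed when its 2 groups were fitted alone, and 25 passed without siNRP1#5 replicate 2. In MDA-MB-231 6 passed when the 2 groups were fitted alone, 9 in 1 model of all 52 samples and 13 without siNRP1#5 replicate 2. In HS578T 1 passed without siNT replicate 3.

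**Figure D2:**
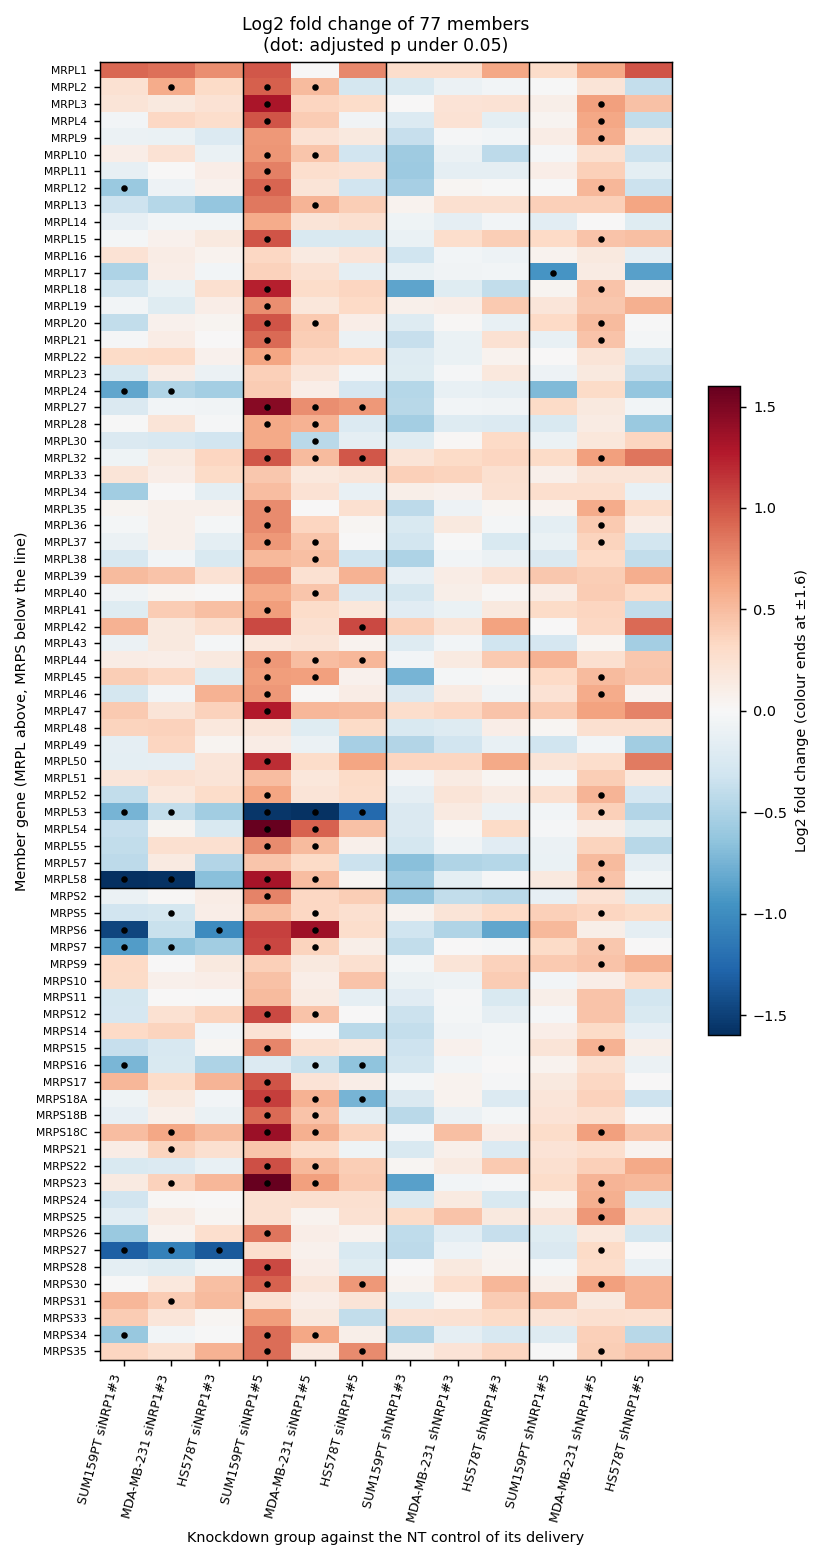
Log2 fold change (colour, red higher and blue lower, ending at 1.6 in either direction) of each of the 77 members (rows) in the 12 knockdown groups against the NT control of the same delivery and line (columns), with a dot where the adjusted p was under 0.05. The SUM159PT siNRP1#5 column holds 44 dots and the MDA-MB-231 shNRP1#5 column 29, while the 3 shNRP1#3 columns hold 0.

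MRPL54, a large subunit protein particular to mitochondria, rose most in SUM159PT. Its CPM was 54.3, 51.5 and 58.0 with siNT and 220 and 122 with siNRP1#5, a log2 fold change of 1.66 (SE 0.23, adjusted p = 0.000485). In MDA-MB-231 MRPL54 rose by 0.95 (SE 0.155, adjusted p = 0.000134), from 34.5, 43.7 and 38.9 CPM to 50.7, 91.0 and 80.9 CPM. The knockdown samples lay above the controls in both lines, but the SUM159PT pair differed widely.

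MRPS23, a small subunit protein also particular to mitochondria, showed the same unevenness. Its CPM in SUM159PT was 71.6, 69.2 and 77 with siNT and 283 and 169 with siNRP1#5 (log2 fold change 1.65, SE 0.251, adjusted p = 0.000868). In MDA-MB-231 MRPS23 rose by 0.65, from 49.3, 52.1 and 49.9 CPM to 75.2, 79.2 and 79.3 CPM, with closely spaced replicates. Its HS578T log2 fold change of 0.42 did not pass (adjusted p = 0.133).

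MRPL27, the counterpart of a bacterial protein near the peptidyl transferase centre, rose in all 3 lines. Its CPM was 33.4, 51.6 and 55.8 with siNT in SUM159PT and 114 and 142 with siNRP1#5. In MDA-MB-231 the values were 51.0, 66.5 and 52.2 against 76.4, 108 and 93.8, and in HS578T 34.9, 36.3 and 41.1 against 77.1, 47.8 and 57.6. All knockdown samples exceeded all controls of their line, and the log2 fold changes were 1.46, 0.74 and 0.70 with adjusted p-values of 0.00132, 0.000237 and 0.0431. With the other lines' profile subtracted, the HS578T value of MRPL27 was 0.79 and no longer passed. MRPL27 also rose between siNT and shNT, by 0.94 in SUM159PT and 1.02 in HS578T.

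MRPL32, which is matured by a mitochondrial protease before ribosomes assemble, rose by 0.99, 0.50 and 0.99 in SUM159PT, MDA-MB-231 and HS578T (adjusted p = 0.0146, 0.0225 and 0.0229). MRPL44, which carries a ribonuclease III fold, rose by 0.69, 0.49 and 0.53 (adjusted p = 0.0363, 0.00329 and 0.0373). In HS578T MRPL44 was at 26.7, 25.6 and 24.1 CPM with siNT and 37.1, 39.2 and 34.2 CPM with siNRP1#5. MRPL32 in HS578T was higher by 1.26 with the other lines' profile subtracted, and it passed, as did MRPL44 at 0.72. MRPL44 was named for its call in all 3 lines after its values were seen.

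Among members with particular roles, MRPL12 rose by 0.93 in SUM159PT (adjusted p = 0.00296), from 178, 224 and 212 CPM to 388 and 387 CPM. In MDA-MB-231 and HS578T its values of 0.21 and -0.31 did not pass. MRPS12, of the decoding centre, rose by 1.06 in SUM159PT and 0.46 in MDA-MB-231, and MRPL45, which holds the ribosome at the inner membrane, by 0.67 and 0.65. MRPL58 rose by 1.32 in SUM159PT, from 60.2, 71.4 and 56.3 CPM to 211 and 99.0 CPM, and by 0.49 in MDA-MB-231. Without siNRP1#5 replicate 2 the SUM159PT value of MRPL58 was 0.63 and did not pass.

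The 3 MRPS18 paralogues, of which MRPS18A sits in the large subunit and the others in the small, all rose in SUM159PT and MDA-MB-231. MRPS18A rose by 1.10 and 0.55, MRPS18B by 0.91 and 0.45, and MRPS18C by 1.37 and 0.57. In HS578T MRPS18A went the other way, from 78.3, 90.8 and 93.9 CPM with siNT to 53.0, 52.2 and 52.7 CPM with siNRP1#5 (log2 fold change -0.74, SE 0.207, adjusted p = 0.0203). That fall of MRPS18A was -0.73 with the other lines' profile subtracted. The responses of MRPS18A to siNRP1#5 differed between the lines (F test, adjusted p = 2.03e-06), as did those of 21 members in all, beside 18.2% of all genes.

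MRPL53, a protein of the large subunit stalk, was the exception to the rise. Its CPM was 65.3, 61.1 and 58.5 with siNT in SUM159PT and 22.4 and 19 with siNRP1#5. In MDA-MB-231 it went from 45.2, 53.0 and 50.9 to 13.6, 15.8 and 19.9, and in HS578T from 84.9, 109 and 97.0 to 36.3, 39.0 and 47.3. No sample of MRPL53 overlapped between groups. The log2 fold changes were -1.56 (SE 0.253), -1.58 (SE 0.133) and -1.25 (SE 0.192), with adjusted p-values of 0.00116, 7.02e-08 and 0.000567. With the other lines' profile subtracted the HS578T value of MRPL53 was -1.27.

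The 3′UTR of MRPL53 held no siNRP1#5 seed match. Most of the 685 exonic bases of MRPL53 are shared with CCDC142 on the same strand, so its fall is less certain than that of a gene without such overlap. The part of CCDC142 in the MRPL53 values was not tested. With shNRP1#5, designed to the same NRP1 site, MRPL53 rose by 0.38 in MDA-MB-231 (adjusted p = 0.0443). Its log2 fold changes of -0.05 in SUM159PT (adjusted p = 0.937) and -0.47 in HS578T (adjusted p = 0.211) did not pass. The difference between the siRNA and shRNA responses was -1.96 (adjusted p = 9.49e-07) in MDA-MB-231 and -1.51 (adjusted p = 0.0288) in SUM159PT. MRPL53 also fell with siNRP1#3, by 0.74 in SUM159PT (adjusted p = 0.0406) and 0.39 in MDA-MB-231 (adjusted p = 0.0322). MRPS16, a small subunit protein, fell with siNRP1#5 by 0.36 in MDA-MB-231 and 0.64 in HS578T, and MRPL30 fell by 0.43 in MDA-MB-231. With the other lines' profile subtracted the HS578T value of MRPS16 was -0.62. MRPS16 was named after its values were seen.

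MRPL42 was the 1 member with siNRP1#5 seed matches (1.3% of members, 9.3% of all genes), at 3 places in a long 3′UTR on chromosome 12. Expressed genes with a siNRP1#5 match had a median log2 fold change of -0.42 in SUM159PT (0.11 without a match). In MDA-MB-231 it was -0.48 (0.04 without) and in HS578T 0.01 (0.11 without). The part of such matches in the members' rise was not tested. MRPL42 rose in HS578T (log2 fold change 1.06, adjusted p = 0.0435), from 37.0, 35.3 and 17.5 CPM to 36, 60.6 and 90.9 CPM. The groups overlapped, and the value was 1.3 with the other lines' profile subtracted. MRPS6 had the largest rise of a member in MDA-MB-231 with siNRP1#5, by 1.36 (SE 0.225, adjusted p = 0.000173), from 42.6, 51.8 and 54.0 CPM to 106, 139 and 131 CPM. In SUM159PT the MRPS6 values with siNRP1#5 were 70.4 and 281 CPM and its change did not pass.

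**Figure D3:**
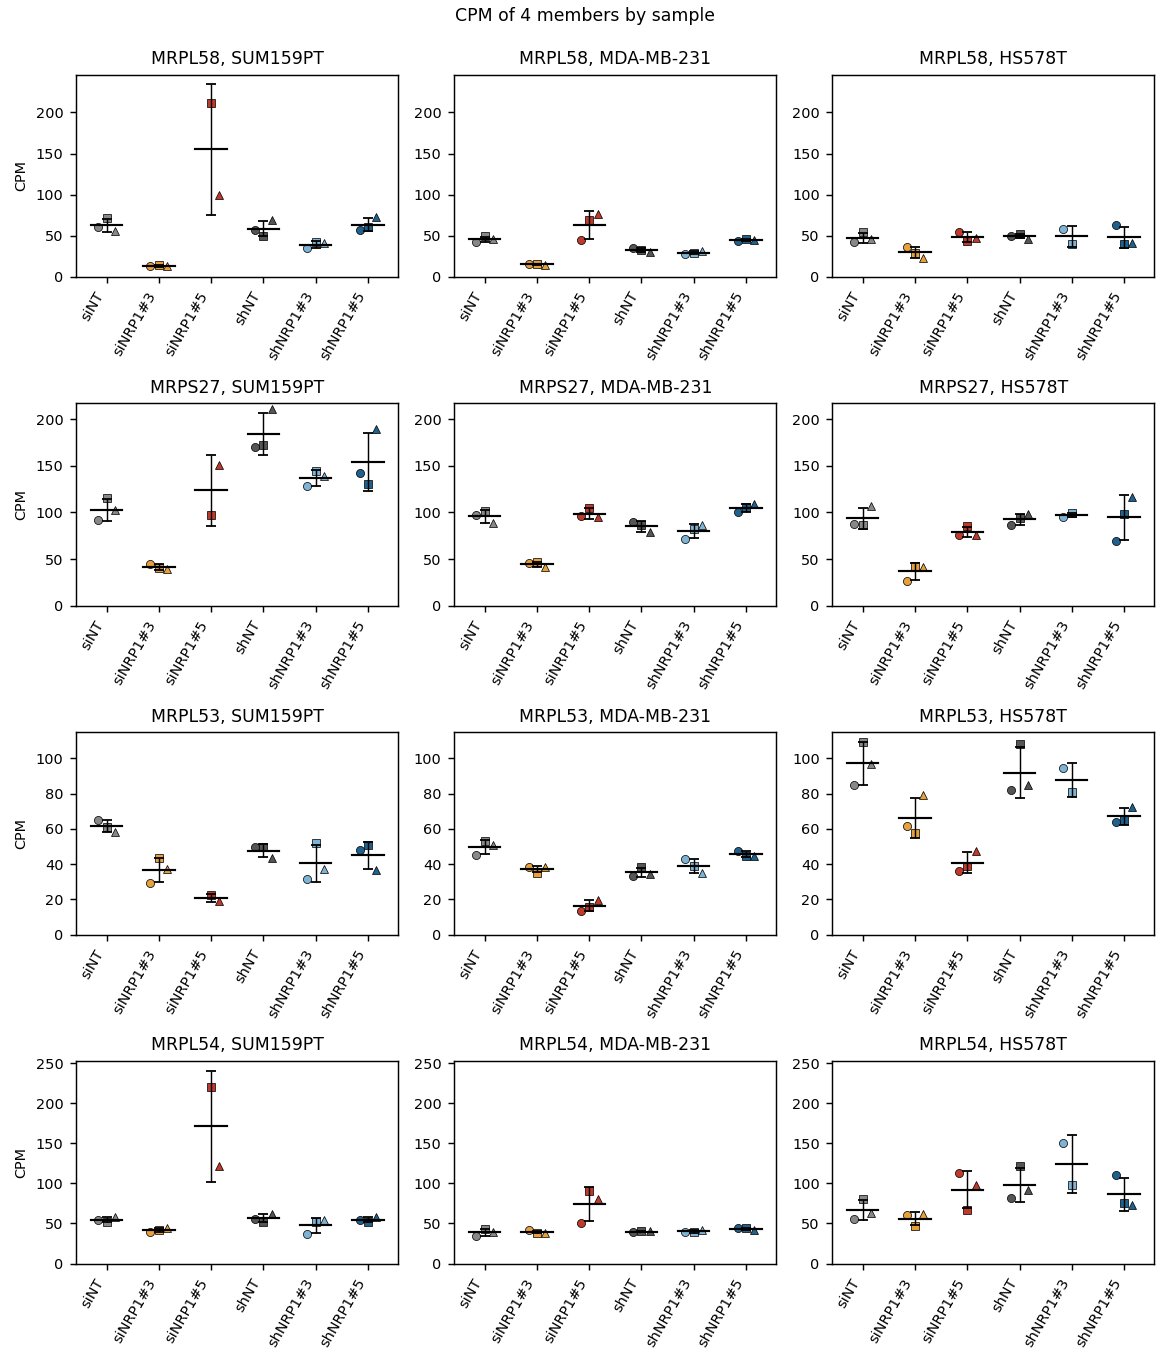
CPM of MRPL58, MRPS27, MRPL53 and MRPL54 in each sample (points; circle, square and triangle for replicates 1, 2 and 3), with group mean and SD, by cell line (columns of panels) and treatment. MRPS27 with siNRP1#3 lies between 26.7 and 46.5 CPM in all 3 lines, below every siNT sample, and MRPL53 with siNRP1#5 lies below every siNT sample of its line.

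The third comparison, shNRP1#3 against shNT, gave 0 members past the threshold by edgeR in any line. In SUM159PT, where 1.4% of all genes passed, 15 members had an unadjusted p under 0.05, DESeq2 called 7 lower, and a fit blocked by replicate number called 4 lower. The median log2 fold change of members was -0.23 there (-0.11 on log2(TPM + 0.5), beside 0.1 for all genes). In MDA-MB-231 3.65% of all genes passed, 8 members had an unadjusted p under 0.05 and DESeq2 called 1. In HS578T, with 2 knockdown samples, 0.0356% of all genes passed, 4 members had an unadjusted p under 0.05 and DESeq2 called 1.

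The fourth comparison was shNRP1#5 against shNT. In MDA-MB-231 29 members rose and 0 fell, where 8.79% of all genes rose and 11.9% fell. 76 of 77 log2 fold changes were above 0, with a median of 0.37 and none above 0.69, and rho with length over all genes was -0.16. Summed TPM was 7780, 7624 and 7488 with shNT and 9374, 9243 and 9324 with shNRP1#5, well apart. The shRNA replicates were successive passages, so their spread is that between passages and not between separate transductions. 11 members passed without shNT replicate 3, 52 when the 2 groups were fitted alone, and 3 in 1 model of all 52 samples, in which all lines share 1 estimate of the spread. In SUM159PT 1 member passed (5.94% of all genes) and the median was 0.09. In HS578T 0 passed by edgeR (0.946% of all genes), with 18 at an unadjusted p under 0.05, 2 by DESeq2 and 1 in the fit blocked by replicate number.

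MRPS25 and MRPS30 rose most in MDA-MB-231 with shNRP1#5. MRPS25, particular to mitochondria, went from 58.0, 49.7 and 49.6 CPM to 79.9, 89.2 and 83.9 CPM (log2 fold change 0.69, SE 0.157, adjusted p = 0.00445). MRPS30, which despite its symbol sits in the large subunit, went from 45.1, 37.3 and 39.5 CPM to 60.1, 65.6 and 66.0 CPM (log2 fold change 0.66, SE 0.114, adjusted p = 0.000613). Neither overlapped its controls. The member called in SUM159PT was MRPL17, which lies by the polypeptide exit. It fell by 0.94 (SE 0.244, adjusted p = 0.0297), from 97.7, 82.6 and 127 CPM to 40.5, 49.6 and 66.2 CPM. The responses of MRPL17 differed between lines (F test, adjusted p = 0.0172), with values of 0.13 in MDA-MB-231 and -0.87 in HS578T that did not pass. 2 members differed between lines for shNRP1#5 (3.81% of all genes) and 0 for shNRP1#3 (0.747% of all genes, with 3 members at an unadjusted p under 0.05).

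Reagents were then compared directly, which leaves out the controls. Between siNRP1#5 and siNRP1#3, 52 members were higher and 1 lower in SUM159PT (29.7% of all genes passed), 20 higher and 3 lower in MDA-MB-231 (39.0%), and 6 higher and 2 lower in HS578T (18.1%). Between shNRP1#5 and shNRP1#3, 7 were higher and 1 lower in SUM159PT (8.71%), 22 higher and 0 lower in MDA-MB-231 (14.2%), and 0 differed by edgeR in HS578T (0.544%, 4 members at an unadjusted p under 0.05, 1 by DESeq2). MRPL58 had the largest of these differences, 3.53 on the log2 scale in SUM159PT and 2.07 in MDA-MB-231 between the siRNAs.

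The same #5 site was delivered in both ways, so the siRNA response minus the shRNA response was tested as an interaction. In SUM159PT it was larger with siRNA for 4 members and smaller for 1 (2.51% of all genes passed), with 39 at an unadjusted p under 0.05 and a median difference of 0.69. 25 members passed in 1 model of all 52 samples, 23 by DESeq2 and 14 with replicate blocks in the fit. In MDA-MB-231 3 were larger and 8 smaller (23.7% of all genes), and in HS578T 0 passed by edgeR (0.854% of all genes, 4 members at an unadjusted p under 0.05). The 4 larger in SUM159PT were MRPL54 (1.68, adjusted p = 0.0176), MRPS23 (1.36, adjusted p = 0.0446), MRPS34 (1.10, adjusted p = 0.0448) and MRPL12 (0.94, adjusted p = 0.0485).

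The 2 non-targeting controls also differed, which touches every comparison across deliveries. In MDA-MB-231 0 members were higher and 25 lower in shNT than in siNT (10.7% and 9.85% of all genes), with a median of -0.28 (-0.11 on log2(TPM + 0.5), beside 0.13 for all genes). Summed TPM was 7780, 7624 and 7488 against 8626, 8843 and 7925. 11 members passed without shNT replicate 3 or without siNT replicate 2. Across genes, the log2 fold change rose with exonic length there (Spearman rho 0.36 over 13982 genes, which are not independent), and its part in the result was not tested. In SUM159PT 4 were higher and 3 lower (5.96% and 8.45%), and in HS578T 8 were higher and 1 lower (9.14% and 8.8%), with medians of 0.18 and 0.15. The controls differ in delivery, harvest time and puromycin selection at once, and these cannot be told apart.

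The related gene lists moved as follows. With siNRP1#5 in SUM159PT 18 of 79 cytosolic ribosomal protein genes and 22 of 78 nuclear respiratory chain genes rose (9.0% of all genes). Their medians were 0.59 and 0.48, beside 0.73 for members. In MDA-MB-231 57 of 79 and 47 of 78 rose with siNRP1#5 (14.4% of all genes), with medians of 0.46 and 0.41. With shNRP1#5 50 of 79 and 8 of 78 rose there (8.79% of all genes), with medians of 0.40 and 0.20. For the 13 mRNAs encoded in the mitochondrial genome the median with siNRP1#5 was -0.05 in SUM159PT and -0.20 in HS578T. In MDA-MB-231 it was -0.27, and 3 of the 13 fell (14.9% of all genes). In SUM159PT 5 of the 13 values were above 0 and 0 had an unadjusted p under 0.05 by edgeR.

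**Figure D4:**
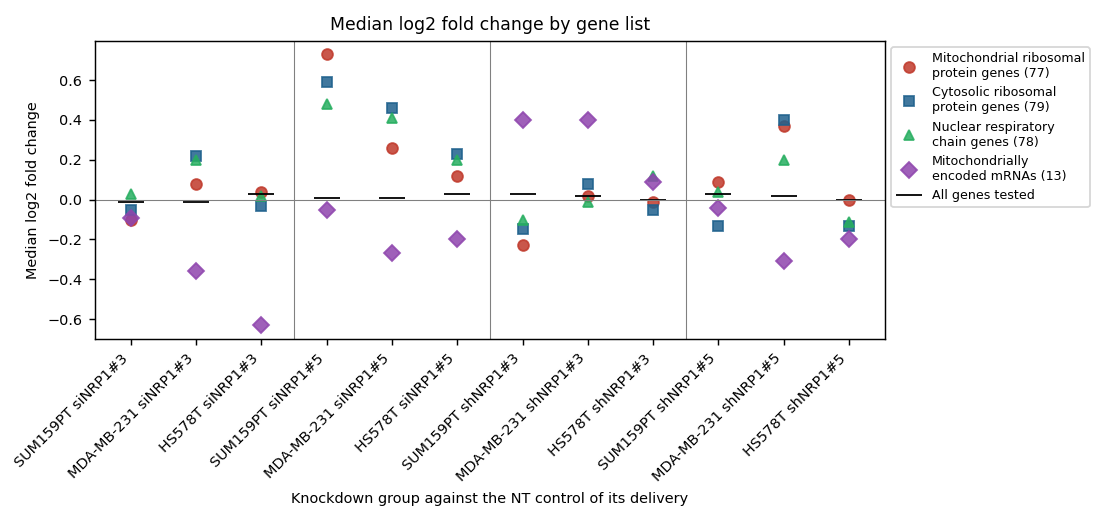
Median log2 fold change (vertical axis) of 4 gene lists and of all tested genes (black dashes) in the 12 knockdown groups against the NT control of the same delivery (horizontal axis). In SUM159PT and MDA-MB-231 siNRP1#5 the 3 nuclear-encoded lists lie above 0 and the 13 mitochondrially encoded mRNAs lie below 0, at -0.05 and -0.27.

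Factors that build or serve the mitochondrial ribosome rose in part with siNRP1#5 in SUM159PT. 11 of 25 assembly factors rose there and 0 fell, including NGRN (1.62, adjusted p = 0.00199) and the ribosomal RNA methyltransferase MRM2 (1.19, adjusted p = 0.00633). Of the 7 genes of mitochondrial transcription 4 rose, among them TFB2M (1.48), TFAM, which packages mitochondrial DNA (1.26), and the RNA polymerase POLRMT (1.21). 5 of 17 mitochondrial aminoacyl-tRNA synthetases rose. 1 of 14 translation factors rose and 1 fell, where 9.0% of all genes rose and 8.89% fell. With siNRP1#3, the release factor homologue MTRFR fell by 1.40 (adjusted p = 0.00103) in SUM159PT and by 1.41 (adjusted p = 3.94e-08) in MDA-MB-231. The elongation factor GFM1 and the translation factor GFM2 fell by 1.27 and 1.14 in MDA-MB-231. MTRFR and GFM1 held no siNRP1#3 seed match in their 3′UTRs and GFM2 held 1.

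Promoters were searched for 4 motifs on both strands, from 250 bases before to 50 after the RefSeq start (GRCh38.p14), in 69 member promoters of 27305 in all. The 27305 were not limited to protein-coding or expressed genes, whereas every member is both. The shares below therefore compare unlike sets, and no share over expressed protein-coding genes was computed. The YY1 motif AAGATGGC was in 20 member promoters, 29.0% beside 3.03% of all. Most of these YY1 matches lay downstream of the start, from position 6 in MRPL38 to position 35 in MRPL22. The MRPS12 match printed below is one of those upstream, at -212. The ETS motif CCGGAAGT was in 11 (15.9% beside 4.44%), the NRF1 motif GCGCATGC in 6 (8.7% beside 3.27%) and the E-box CACGTG in 6 (8.7% beside 7.43%). 30 of the 69 held at least 1 of the 4 (43.5% beside 16.2%). A motif match describes letters and not a bound site. Examples are shown for 2 members with a rise in all 3 lines, the stalk protein that fell, and 2 members that rose in SUM159PT and MDA-MB-231, with the motif in capitals.
MRPL27, ETS motif, chr17:50373209-50373256, minus strand: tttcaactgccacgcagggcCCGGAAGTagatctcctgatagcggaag
MRPL32, NRF1 motif, chr7:42932317-42932364, plus strand: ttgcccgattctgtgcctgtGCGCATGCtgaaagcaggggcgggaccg
MRPL53, ETS motif, chr2:74472725-74472772, minus strand: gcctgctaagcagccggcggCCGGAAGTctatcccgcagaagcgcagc
MRPS18C, NRF1 motif, chr4:83455902-83455949, plus strand: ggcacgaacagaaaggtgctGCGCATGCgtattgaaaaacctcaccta
MRPS12, YY1 motif as GCCATCTT, chr19:38930712-38930759, plus strand: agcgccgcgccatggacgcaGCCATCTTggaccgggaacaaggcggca

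MRPL27, which rose with siNRP1#5, and MRPL53, which fell, both held the ETS motif. MRPL44 held none of the 4 motifs in this window.

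Differences between lines without NRP1 knockdown were read from the NT controls, 6 per line, siNT and shNT together. These were transfected or transduced, and no sample was untreated. Against MDA-MB-231, 38 members were higher and 10 lower in SUM159PT (31.8% and 27.6% of all genes), and 42 were higher and 18 lower in HS578T (34.9% and 35.4%). Between HS578T and SUM159PT, 30 were higher and 23 lower (29.8% and 33.7%). The medians on counts were 0.30, 0.41 and 0.16. On log2(TPM + 0.5) they were -0.05, -0.34 and -0.23, beside -0.14, -0.33 and -0.17 for all genes, so the direction for the members as a group depended on the scale. The pairs share samples.

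MRPS21, a small bacterial-type protein of the small subunit, separated all 3 lines on either scale. Its TPM was 20.0 to 22.1 in the 6 MDA-MB-231 controls, 42.3 to 48.2 in SUM159PT and 59.5 to 77.8 in HS578T, with no overlap between lines. The log2 differences in counts were 1.53 (SE 0.112) for SUM159PT and 2.52 (SE 0.115) for HS578T against MDA-MB-231, with adjusted p-values of 1.63e-15 and 8.04e-22. MRPL40, of the central protuberance, had 43.6 to 52.0 TPM in MDA-MB-231 and 78 to 91.6 TPM in HS578T. SUM159PT had 80.2 to 114 TPM of MRPL40, and these 2 lines overlapped.

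MRPL36 was highest in SUM159PT, at 204 to 344 TPM, against 103 to 136 TPM in MDA-MB-231 and 70.1 to 129 TPM in HS578T. MRPS2 and MRPS10, both bacterial-type small subunit proteins, were highest in MDA-MB-231. MRPS2 had 210 to 290 TPM there, 82.5 to 136 TPM in SUM159PT and 59.0 to 93.0 TPM in HS578T. MRPS10 had 65.8 to 86.8 TPM in MDA-MB-231, 14.7 to 43.6 TPM in SUM159PT and 17.2 to 28.8 TPM in HS578T, where the last 2 lines overlapped. MRPL1, a bacterial-type protein of the large subunit, was lowest in HS578T, at 1.91 to 6.21 TPM against 7.39 to 24.1 TPM in SUM159PT.

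**Figure D5:**
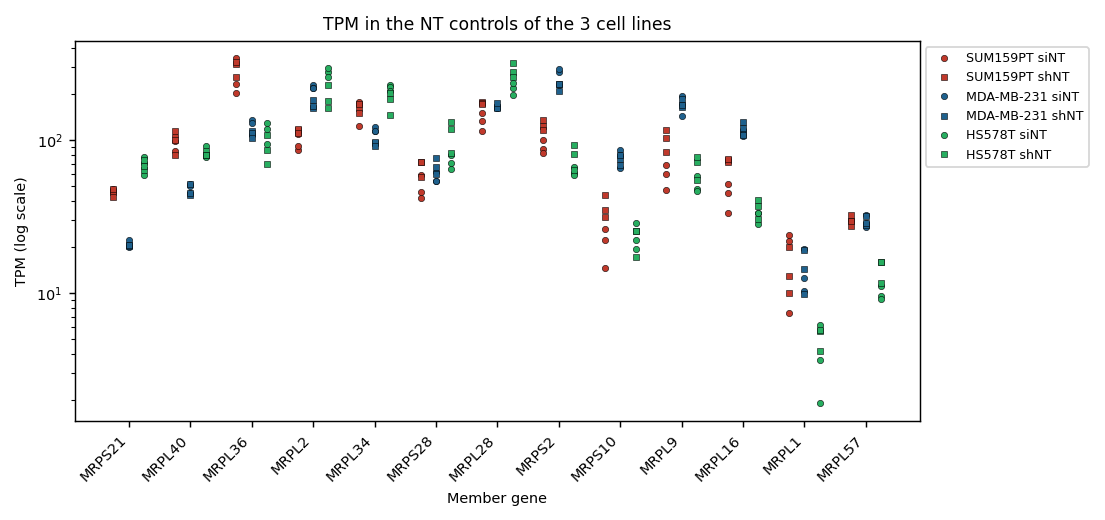
TPM on a log axis of 13 members in the NT controls of the 3 cell lines (colours), with siNT as circles and shNT as squares, each point 1 sample. MRPS21 separates the 3 lines, and MRPS2 and MRPS10 lie highest in MDA-MB-231.

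All libraries were of bulk RNA, so a member's value is relative to the other RNA of the sample, and fewer expressing cells and less RNA per cell cannot be told apart.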

How the data were processed

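Poly(A)-enriched, strand-specific libraries of 52 samples were sequenced. The authors trimmed reads with Trim Galore (0.6.5, quality read with FastQC 0.11.9), aligned them with STAR (2.7.2b) to GRCh38 and counted with RSEM (1.3.3). The deposited expected counts per gene are not normalized and were rounded to whole numbers. The deposited TPM values are scaled by length and depth within each sample. The deposited percent values give each isoform's share of its gene and were used to name a member's main transcript. The members and lists were chosen with earlier results of these data known.

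For each cell line, 1 edgeR model (4.0.16, R 4.3.3) with 6 group means was fitted after TMM normalization and filterByExpr, with robust quasi-likelihood F tests and Benjamini-Hochberg adjustment over all genes (threshold 0.05, two-sided). Cell lines were compared in 1 model of 18 group means. CPM are TMM-scaled. The steps were tested on simulated data, in which null tests and fold changes came out as simulated and many changed genes, most of them of low counts, were not called. Alternatives were DESeq2 (1.42.0), other size factors, no filter, only the 2 groups compared, 1 model over 52 samples, a replicate block, limma (3.58.1) on log2(TPM + 0.5), leaving out each replicate, and subtraction of the other lines' control profile.

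Named with values are members called the same way with 1 reagent in at least 2 lines (up to 12), the 2 largest rises and falls per knockdown comparison, the 3 largest differences each way per pair of lines, the 5 highest and lowest by TPM, and members with a named role. Isoforms, 3′UTRs and exons came from GENCODE (GRCh38), and promoters from RefSeq.

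Same-numbered samples were checked for shared deviations from group means. Of 15 comparisons, 6 had every correlation over 0.1, and over 43 pairs the correlation ran from -0.207 to 0.61. The numbers counted as paired for SUM159PT siNRP1#3, SUM159PT shNRP1#3, MDA-MB-231 siNRP1#5 and HS578T shNRP1#5, each with 3 pairs. No replicate pair was alike within counting noise.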

Additional observations from a re-analysis of the deposited data

Results flagged for a closer look

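Equal log2 fold changes of a reagent in the 3 cell lines were tested by an edgeR F test over all samples. Of the 77 members, 1 differed with siNRP1#3, 21 with siNRP1#5 and 2 with shNRP1#5. The shares of all genes that differed were 3.42%, 18.2% and 3.81%. For siNRP1#3 the member was MRPL58 (adjusted p = 0.00333). The 3 HS578T siNRP1#5 libraries, with MDA-MB-231 marker RNA at 26%, 16.7% and 13.4%, enter each of the tests with siNRP1#5, and their part in the result was not tested.

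Of the members named above, those that differed with siNRP1#5 had the following adjusted p-values. They were 2.03e-06 for MRPS18A, which rose in SUM159PT and MDA-MB-231 and fell in HS578T, 0.000992 for MRPL2, 0.0017 for MRPS23, 0.00185 for MRPS18B and 0.00565 for MRPS7. They were 0.00725 for MRPL58, 0.0113 for MRPL30, 0.0175 for MRPL54 and 0.0408 for MRPS30. MRPL30 had log2 fold changes of 0.60 in SUM159PT and -0.15 in HS578T that did not pass, beside its fall by 0.43 in MDA-MB-231. For shNRP1#5 MRPL17 differed (adjusted p = 0.0172).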

How the results depend on the processing

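Numbers here are members called, higher or lower, and knockdown groups are set against the NT control of their delivery. In 1 model over 52 samples, with the reported number in brackets, there were 1 (0) for HS578T shNRP1#5 against shNRP1#3, 3 (0) for HS578T shNRP1#5, 25 (9) for HS578T shNT against siNT, 8 (2) for HS578T siNRP1#3 and 3 (22) for MDA-MB-231 shNRP1#5 against shNRP1#3. There were also 3 (29) for MDA-MB-231 shNRP1#5, 4 (25) for MDA-MB-231 shNT against siNT, 4 (11) for MDA-MB-231 siNRP1#3, 1 (11) for MDA-MB-231 siNRP1#5 minus shNRP1#5 and 15 (23) for MDA-MB-231 siNRP1#5 against siNRP1#3. There were also 9 (28) for MDA-MB-231 siNRP1#5, 6 (0) for SUM159PT shNRP1#3, 14 (8) for SUM159PT shNRP1#5 against shNRP1#3, 3 (1) for SUM159PT shNRP1#5 and 17 (7) for SUM159PT shNT against siNT. There were also 25 (5) for SUM159PT siNRP1#5 minus shNRP1#5. By DESeq2 there were 1 (0) for HS578T shNRP1#3, 1 (0) for HS578T shNRP1#5 against shNRP1#3, 2 (0) for HS578T shNRP1#5, 15 (9) for HS578T shNT against siNT and 4 (2) for HS578T siNRP1#3. There were also 1 (0) for MDA-MB-231 shNRP1#3, 7 (0) for SUM159PT shNRP1#3, 13 (8) for SUM159PT shNRP1#5 against shNRP1#3, 4 (1) for SUM159PT shNRP1#5 and 11 (7) for SUM159PT shNT against siNT. There were also 23 (5) for SUM159PT siNRP1#5 minus shNRP1#5. With RLE factors there were 1 (0) for HS578T shNRP1#5. By limma on log2(TPM + 0.5) there were 1 (0) for HS578T siNRP1#5 minus shNRP1#5, 4 (9) for HS578T siNRP1#5, 15 (25) for MDA-MB-231 shNT against siNT, 14 (28) for MDA-MB-231 siNRP1#5 and 0 (1) for SUM159PT shNRP1#5. There were also 19 (7) for SUM159PT shNT against siNT, 2 (5) for SUM159PT siNRP1#5 minus shNRP1#5, 25 (53) for SUM159PT siNRP1#5 against siNRP1#3 and 17 (44) for SUM159PT siNRP1#5. Without the filter on low counts there were 2 (0) for HS578T shNRP1#5, 5 (8) for HS578T siNRP1#5 against siNRP1#3, 4 (9) for HS578T siNRP1#5, 2 (0) for MDA-MB-231 shNRP1#3 and 7 (11) for MDA-MB-231 siNRP1#5 minus shNRP1#5. There were also 2 (0) for SUM159PT shNRP1#3, 5 (8) for SUM159PT shNRP1#5 against shNRP1#3, 8 (5) for SUM159PT siNRP1#5 minus shNRP1#5, 1 (2) for shNRP1#5 between the 3 lines and 9 (21) for siNRP1#5 between the 3 lines. With only the 2 groups fitted there were 4 (9) for HS578T shNT against siNT, 5 (0) for MDA-MB-231 shNRP1#3, 52 (29) for MDA-MB-231 shNRP1#5, 6 (28) for MDA-MB-231 siNRP1#5 and 3 (0) for SUM159PT shNRP1#3. There were also 4 (9) for SUM159PT siNRP1#3 and 0 (44) for SUM159PT siNRP1#5. With other lines' profile subtracted there were 3 (9) for HS578T shNT against siNT and 13 (8) for HS578T siNRP1#5 against siNRP1#3. With the replicate number as a block (paired where the numbers pair the samples) there were 1 (0) for HS578T shNRP1#5, 4 (0) for SUM159PT shNRP1#3, 2 (1) for SUM159PT shNRP1#5 and 14 (5) for SUM159PT siNRP1#5 minus shNRP1#5. The replicate block moved no other count by over 1.5 times, and 27 of 43 same-numbered pairs correlated best with their own number. Leaving out 1 replicate at a time gave 0 to 1 for HS578T shNRP1#5, 3 to 14 for HS578T shNT against siNT, 1 to 2 for HS578T siNRP1#3, 1 to 7 for HS578T siNRP1#5 and 57 to 62 for HS578T against MDA-MB-231 NT controls. It further gave 46 to 52 for HS578T against SUM159PT NT controls, 0 to 1 for MDA-MB-231 shNRP1#3, 11 to 23 for MDA-MB-231 shNRP1#5, 11 to 22 for MDA-MB-231 shNT against siNT and 5 to 11 for MDA-MB-231 siNRP1#3. It further gave 13 to 41 for MDA-MB-231 siNRP1#5, 0 to 2 for SUM159PT shNRP1#5, 0 to 9 for SUM159PT shNT against siNT, 3 to 9 for SUM159PT siNRP1#3 and 25 to 42 for SUM159PT siNRP1#5. It further gave 45 to 48 for SUM159PT against MDA-MB-231 NT controls. It gave 0 throughout for SUM159PT shNRP1#3 and HS578T shNRP1#3. In SUM159PT a count moved by over 1.5 times without siNRP1#5 replicate 2, siNRP1#3 replicate 1 or 3, or any siNT, shNT or shNRP1#5 replicate. In MDA-MB-231 one did without siNRP1#5 replicate 2, siNRP1#3 replicate 1, shNRP1#3 replicate 2, shNT replicate 2 or 3, or any siNT or shNRP1#5 replicate. In HS578T one did without siNRP1#3 replicate 1, shNRP1#5 replicate 1, or any siNT, shNT or siNRP1#5 replicate. In all, 150 of 210 such counts outside the leave-one-out fits stayed within 1.5 times of the reported one. For the named members, 215 calls gave 2459 values under the alternatives, of which 1964 still passed, 495 kept their direction without passing and 0 reversed, and 74 of the calls passed under every alternative. The causes of these moves were not tested, beyond the fewer samples in a fit of 2 groups or without a replicate.

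The lowest expected count of a member was 61. Groups of 2 samples (SUM159PT siNRP1#5 and HS578T shNRP1#3) rest on the spread of the other groups, and a sample left alone in a fit is assumed to vary like them. The raised MDA-MB-231 markers in HS578T siNRP1#5 stand beside every value of that group, and their part was not tested.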
